A study of Eublepharis macularius with 23 samples.

Results

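The genes described here are the neighbours of *OCA2* on Scaffold 3 of the leopard gecko (*Eublepharis macularius*) assembly made for the study. They are the 102 genes, of 22064 in the count tables, whose annotated span overlaps the stretch from 48 to 60 Mb of that scaffold, with *OCA2* itself left out. *OCA2*, which encodes a melanosomal ion transport protein, spans 55013862 to 55276168 on the minus strand. The members were chosen by position. The stretch was set with earlier results of these data known, and no expression value picked genes within it. Of the 102 members, 36 have a locus number as their symbol, 30 of them with the name of a related gene added. All 102 were matched by symbol to the RefSeq annotation, which lists 95 as protein-coding, 5 as long non-coding RNAs and 2 as small nuclear RNAs.

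Bulk RNA sequencing was done on back skin (dorsal skin) taken at embryonic day 40, a stage at which melanin is already being made. The 12 libraries used came from 3 Hypome 3 heterozygous embryos, which carry 1 copy of the *mh3* allele, from 4 Hypome 1 homozygous (*mh1*/*mh1*) embryos, from 3 Hypome 1 heterozygous (*mh1*/+) embryos and from 2 Hypome 1 wild-type (+/+) embryos. Hypome 1 and Hypome 3 are recessive hypomelanistic morphs, in which dark pigment is reduced. The 3 Hypome 1 genotypes are offspring of a single pair of heterozygous parents collected over several breeding seasons, and the Hypome 3 embryos come from another cross. Each library is 1 embryo, and the sex of the embryos is not known. The Hypome 3 locus was mapped by the study to the stretch around *OCA2*, while the Hypome 1 locus lies elsewhere on Scaffold 3, so these genes share a scaffold with it but lie outside it. Hypome 3 homozygous embryos and Hypome 2 were not analysed here.

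The stretch brings together gene blocks that are known from mammals. *UBE3A*, *ATP10A*, *GABRA5*, *GABRG3*, *OCA2*, *HERC2*, *NIPA1*, *NIPA2*, *CYFIP1* and *TUBGCP5* lie together in the human region whose deletion causes Prader-Willi and Angelman syndromes. In humans an intron of *HERC2* holds an enhancer of *OCA2* that bears on eye colour, and *UBE3A* is imprinted in mammalian neurons. On the side of lower coordinates follow genes that in humans sit on the long arm of chromosome 2, among them the interleukin 1 receptor cluster. On the side of higher coordinates follow genes that in humans lie on the X chromosome, among them genes of the human pseudoautosomal region such as *SHOX*, *CRLF2* and *SLC25A6*. The blocks were drawn by position, and every member between the first and last gene of a block was counted in it. In this way 60 members fall in the block of human chromosome 2 and 11 in the block next to *OCA2* (*UBE3A* to *LOC129326565*). A further 8 fall in a block from *CHST7* to a pair of regucalcin-like genes and 23 in the block of pseudoautosomal and neighbouring genes. The chromosome 2 block so takes in genes not placed there by name, such as ASMT-like genes, while *ASMT* itself lies in the last block.

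The libraries held 16826633 to 21208295 counts in the Hypome 3 heterozygous embryos and 32455975 to 52017277 counts in the Hypome 1 embryos, of which the members took 0.193% to 0.240%. The Hypome 1 counts hold an excess of even values, and divided by 2 their totals are 16227987 to 26008638, so whether the morphs differ in sequencing depth is uncertain. Markers of the skin were present in each library: the summed level of 3 epidermal markers was 663 to 1181 TPM, that of 5 dermal fibroblast markers 18518 to 35199 TPM and that of 6 melanophore markers 962 to 2100.2 TPM. TPM, a transcript count scaled for length and library total, is a level per length and was used wherever genes are compared with each other. CPM, a count scaled to the library total after TMM normalization, was used wherever libraries are compared for 1 gene. The summed level of 5 skeletal muscle markers ran from 9.61 to 3896 TPM, and homozygous replicate 1 had the lowest level of the fibroblast, melanophore and endothelial lists. The RNA integrity given for 2 of the homozygous libraries, replicates 1 and 4 by number, is lower than that of the rest. Since the skin holds several cell types, fewer cells of a type and less RNA per cell cannot be told apart.

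Genes with a clear skin transcript and genes close to silence lie side by side in the stretch. A total of 54 members (52.9%) had at least 1 TPM in every library, against 56.5% of all genes and 49.6% of the other genes of Scaffold 3. The stretches of 12 Mb on either side, from 36 to 48 Mb and from 60 to 72 Mb, held 61.4% and 57.1% such genes. A further 31 members stayed under 1 TPM in every library, and 17 crossed that level between libraries. The median member had a median level of 4.32 TPM, against 4.44 TPM over all genes. By block, 30 of the 60 genes of the chromosome 2 block, 5 of the 11 next to *OCA2*, 6 of the 8 from *CHST7* on and 13 of the 23 pseudoautosomal-type genes had at least 1 TPM in every library.

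**Figure D1:**
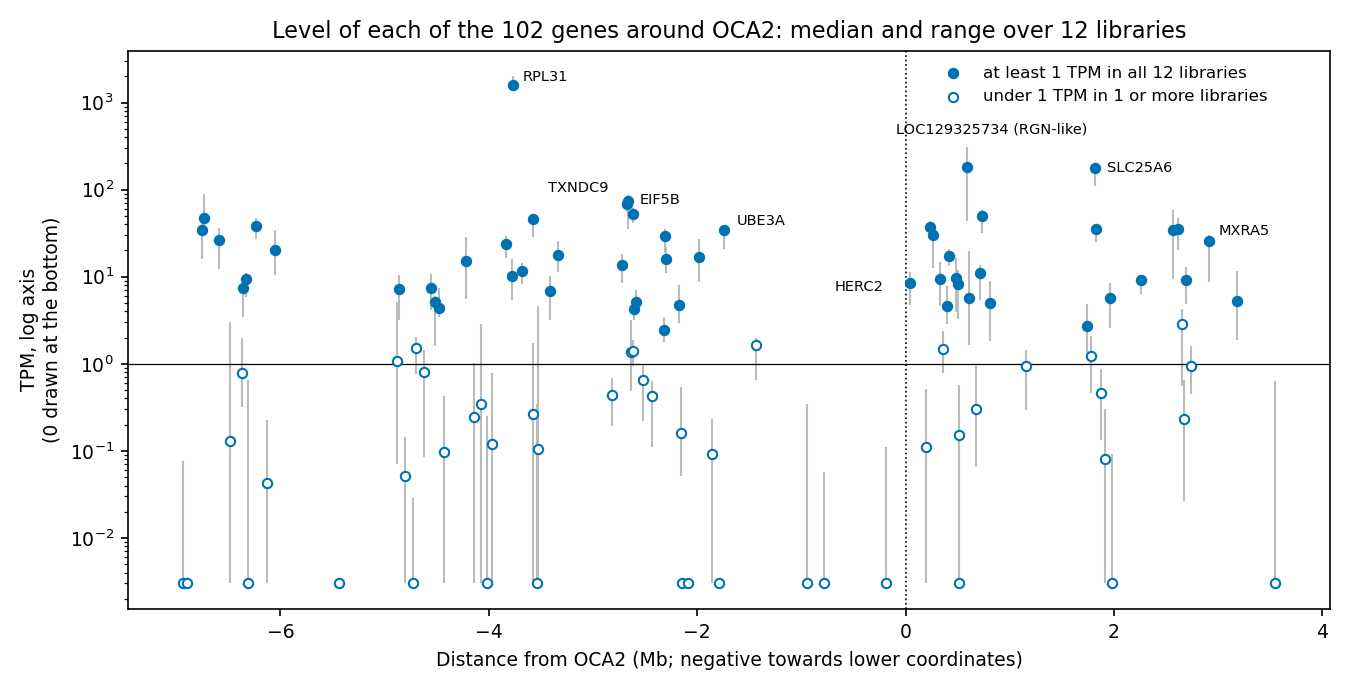
Level in TPM (log axis) of the 102 genes around *OCA2* against their distance from *OCA2* in Mb. Points are medians and lines ranges over 12 libraries, filled points are the 54 genes with at least 1 TPM in every library, the horizontal line is 1 TPM, and *RPL31* stands highest at a median of 1576 TPM.

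The highest level belonged to *RPL31*, a protein of the large ribosomal subunit, with a median of 1576 TPM and a range of 1433 to 2011 TPM. Next came *LOC129325734(RGN-like)*, similar to regucalcin, a calcium-binding protein, with a median of 184 TPM and a range of 43.7 to 309 TPM. That range is far wider than the range of *SLC25A6*, an ADP/ATP carrier of the inner mitochondrial membrane, which had a median of 176 TPM and ran from 109 to 199.9 TPM. *TXNDC9*, a thioredoxin-domain protein, and *EIF5B*, the initiation factor that joins the ribosomal subunits, had medians of 74.7 and 69.1 TPM. In all, 23 members had at least 10 TPM in every library.

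At the other end, 5 members had no count in any library, and 11, these 5 included, had at most 3 counts in each. The 5 without a count were *CNGA3*, a cyclic nucleotide-gated channel of cone photoreceptors, an opsin-like gene (*LOC129326793*), *LOC129325538* and 2 U1 spliceosomal RNA genes, which a polyA library does not capture well. A count of 0 allows at most 3 counts per library, so these genes were not detectable at this depth rather than shown to be absent. *GABRA5* and *GABRG3*, which encode subunits of the GABA-A receptor, were close to silent, with at most 2 and 4 counts in a library. *OCA2* itself, between *GABRG3* and *HERC2*, had 1.52 to 9.44 CPM. *NIPA1* reached 0.516 TPM in its highest library, while *NIPA2*, the related magnesium transporter gene next to it, had at least 32.4 TPM. *ASMT*, the last enzyme of melatonin synthesis, had 1 count in 1 library, and the neuronal transcription factor gene *POU3F3* at most 8 counts.

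A total of 78 members passed the filter on low counts and were tested in each comparison. The 24 members left out reached at most 19 counts in their highest library. A gene is said to have passed the test at an adjusted p under 0.05 in edgeR (quasi-likelihood F test, Benjamini-Hochberg over all genes tested). No member passed it in any of the 4 comparisons, and each comparison is therefore described by its values, intervals and background.

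The genes nearest to *OCA2* differed little in fold between groups, and the fold intervals given for them include 1. *HERC2*, a very large E3 ubiquitin ligase, lies 42.3 kb from *OCA2* and spans 55318491 to 55448820 on the minus strand. It had 69.1, 69.1 and 60.4 CPM in Hypome 3 heterozygous embryos, against 61.01, 77.2 and 53.8 CPM in Hypome 1 heterozygous embryos. The log2 fold change of *HERC2* was 0.05 ± 0.15 (SE), and the 95% interval of the fold ran from 0.830 to 1.29. The Hypome 1 homozygous libraries had 55.8, 51.96, 69.2 and 62.8 CPM and the wild-type libraries 64.7 and 64.03 CPM, and the wild-type pair lies inside the range of each other group. Between homozygous and heterozygous Hypome 1 libraries the fold of *HERC2* was 0.939, with an interval of 0.753 to 1.17.

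*UBE3A*, the E3 ubiquitin ligase lost in Angelman syndrome, spans 53237562 to 53269149 on the minus strand. It had 52.5, 53.7 and 57.5 CPM in Hypome 3 heterozygous libraries, against 59.7, 53.5 and 61.2 CPM in Hypome 1 heterozygous libraries. Homozygous libraries had 56.2, 61.8, 63.02 and 57.6 CPM and wild-type libraries 62.9 and 64.8 CPM. The 2 heterozygous groups overlap, while every Hypome 1 heterozygous library lies below both wild-type libraries. The intervals of its fold ran from 0.815 to 1.08 for Hypome 3 heterozygous over Hypome 1 heterozygous, from 0.884 to 1.19 for homozygous over heterozygous and from 0.792 to 1.11 for homozygous over wild-type. *NIPA2*, a magnesium transporter gene, averaged 25.8 ± 3.87 CPM in Hypome 3 heterozygous embryos and 30.9 ± 3.67 CPM in Hypome 1 heterozygous embryos (SD, n = 3 each), a fold of 0.837 with an interval of 0.663 to 1.06. In the Hypome 1 cross it averaged 37.2 ± 5.35 CPM in homozygous libraries, and the fold over heterozygous libraries was 1.21 with an interval of 0.966 to 1.51.

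*CYFIP1*, a subunit of the WAVE complex that drives actin assembly, had 47.1, 61.9, 86.4 and 78.6 CPM in homozygous libraries, against 68, 66.6 and 73.6 CPM in heterozygous and 72.1 and 71.3 CPM in wild-type libraries. Homozygous replicate 1 was the lowest and homozygous replicate 3 the highest of the Hypome 1 libraries, so the homozygous group encloses the others. Its Hypome 3 heterozygous values, 73.1, 66.9 and 78.3 CPM, overlap those of the Hypome 1 heterozygous libraries. *ATP10A*, a phospholipid flippase gene on the other side of *OCA2*, was low throughout, at 2.42 to 4.92 CPM. Its interval was wide, 0.692 to 1.78 between Hypome 3 and Hypome 1 heterozygous embryos and 0.614 to 1.64 between homozygous and heterozygous Hypome 1 embryos. *TUBGCP5*, of the gamma-tubulin ring complex, had a fold of 0.824 (0.588 to 1.16) in the first of these comparisons and of 0.804 (0.586 to 1.10) in the second.

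**Figure D2:**
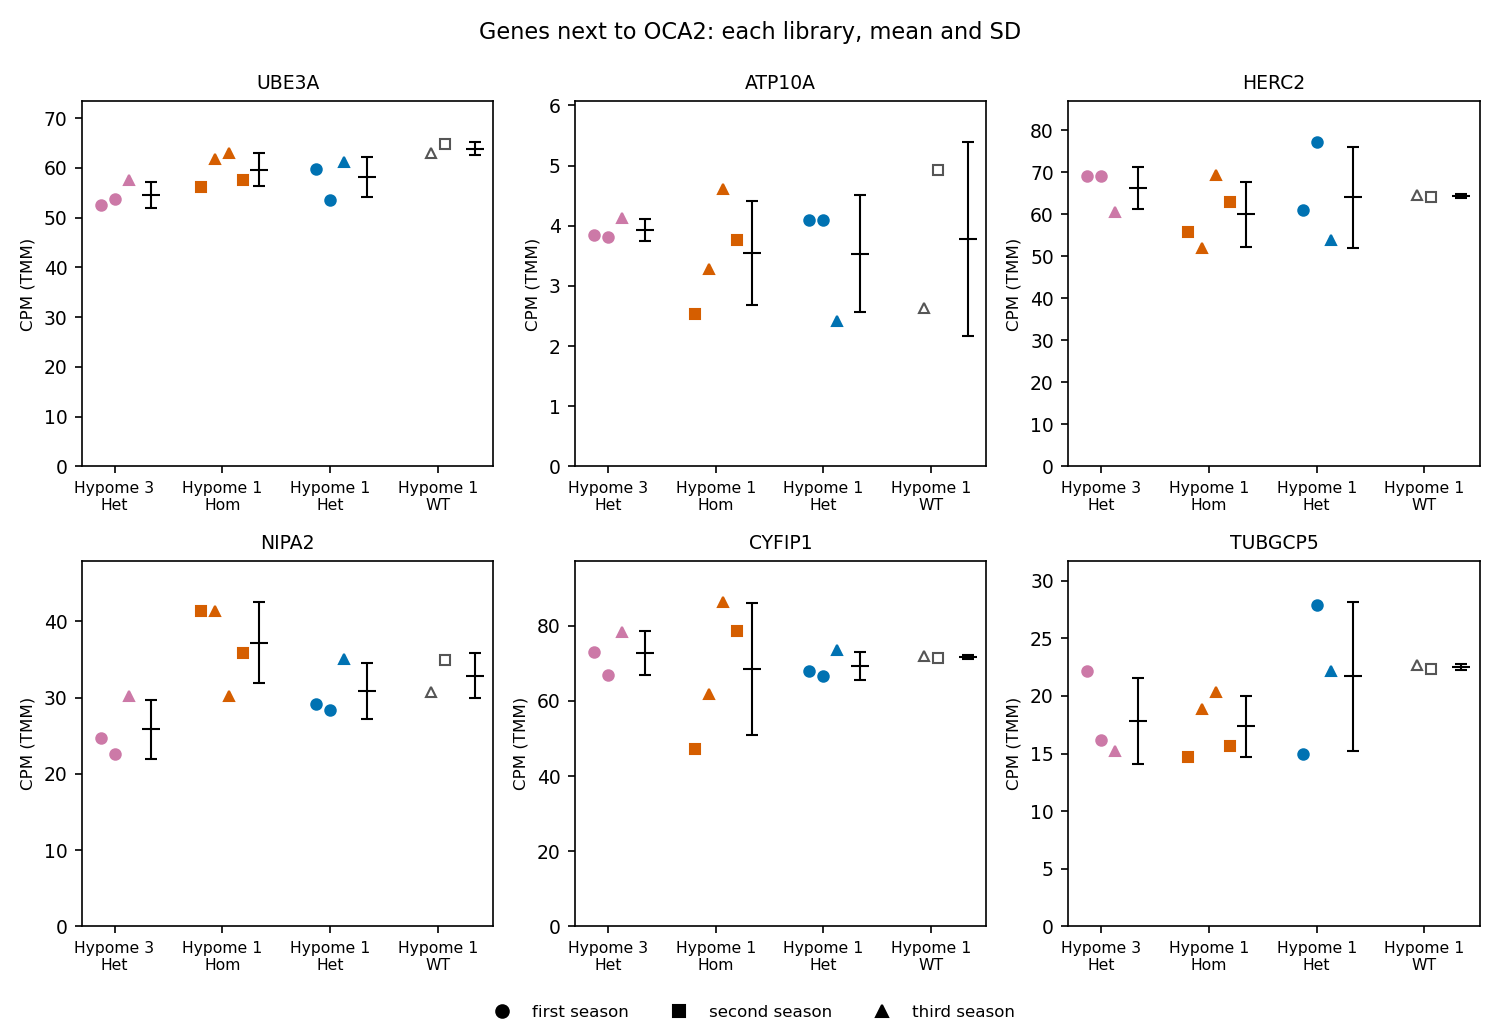
CPM (TMM-normalized, axes from 0) of 6 genes next to *OCA2* in each library of the 4 groups, with the mean and SD beside the points. Marker shapes give the breeding season joined by replicate number, and for each gene the ranges of Hypome 3 heterozygous and Hypome 1 heterozygous libraries overlap.

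Over the 7 tested genes of the block next to *OCA2*, 0 had an unadjusted p under 0.05 in any comparison, against 17.8%, 8.53%, 1.53% and 11.2% of all genes tested for homozygous over heterozygous, homozygous over wild-type, heterozygous over wild-type and Hypome 3 over Hypome 1 heterozygous libraries. At these shares a count of 0 of 7 is near the background. The groups did not overlap for 1 of the 7 genes between homozygous and wild-type libraries (*TUBGCP5*). Between heterozygous and wild-type libraries it was also 1 (*UBE3A*). The shares over all genes were 19.4% and 13%, so these counts are near the background too. The median absolute log2 fold change of these 7 genes was 0.09 between Hypome 3 and Hypome 1 heterozygous libraries and 0.09 between homozygous and heterozygous Hypome 1 libraries, against 0.22 and 0.26 over all genes tested. The genes were not matched for level, so the smaller medians are not read as a trait of these 7 genes. All 7 stayed within 0.5 on the log2 scale in each comparison. *VWA3B*, counted with the chromosome 2 block and the third tested gene from *OCA2* on the side of lower coordinates, was near the limit of detection, at 0 to 0.473 CPM, and its folds cannot be read.

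Between Hypome 1 homozygous and heterozygous embryos, the members with the smallest p were a pair of regucalcin-like genes, *PRKX*, *MXRA5*, *PPP2R3B* and *ECRG4*, none of them in the block next to *OCA2*. Of 78 members, 17 had an unadjusted p under 0.05 (21.8%), against 17.8% of all genes tested, with 8 higher and 9 lower in homozygous embryos, against 9.7% and 8.13% of all genes. The groups did not overlap for 16 members, against 17.1% of all genes. After adjustment 0 members passed edgeR's test, against 0.0358% of all genes, which is 6 genes. DESeq2's Wald test on the same 9 libraries called 6 members, 3 higher and 3 lower, against 6.87% of all genes (4.44% higher and 2.43% lower). In each of these counts the members' share was near the background.

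The 2 regucalcin-like genes and *PRKX* were higher in homozygous embryos. *LOC129325939(RGN-like)* spans 55885708 to 55925351 on the plus strand, 609.5 kb from *OCA2*. It had 16.96, 19.4, 15.5 and 15 CPM in homozygous libraries, against 4.30, 1.68 and 1.32 CPM in heterozygous and 5.25 and 1.69 CPM in wild-type libraries. Every homozygous library lay above every other Hypome 1 library. The log2 fold change over heterozygous libraries was 2.77 ± 0.48 (adjusted p = 0.0821 in edgeR and 4.95e-08 in DESeq2), a fold of 6.80 with an interval of 3.25 to 14.2. Leaving out each library in turn gave 2.48 to 3.48, and with the season as a factor the log2 fold change was 3.97 ± 0.76. By the season join, only heterozygous replicate 3 shares a season with homozygous libraries, so the season value rests on few libraries. The same limit holds for each season value given below for these 2 groups. With each library left out the adjusted p ran from 0.0355 to 0.215 in edgeR. It was under the threshold only without homozygous replicate 3, where 1.64% of all genes were called.

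*LOC129325734(RGN-like)* is the copy next to it, at 55861984 to 55880091 on the plus strand. It had 277, 287, 155 and 253 CPM in homozygous libraries, against 96.9, 39.1 and 138 CPM in heterozygous and 142 and 91.7 CPM in wild-type libraries. Homozygous replicate 3 was close to the highest heterozygous library and the other 3 homozygous libraries stood clear of it. The log2 fold change over heterozygous libraries was 1.41 ± 0.39 (adjusted p = 0.120 in edgeR and 0.00280 in DESeq2), and 0.83 ± 0.59 with the season as a factor. The 2 genes are related copies, and only uniquely mapped reads were counted, so that the split of reads between them is uncertain.

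*PRKX*, a cAMP-dependent protein kinase gene at the far end of the stretch, 3183 kb from *OCA2*, was also higher in every homozygous library. It had 30.4, 24.6, 20.9 and 34.6 CPM in homozygous libraries, against 11.8, 4.57 and 15.3 CPM in heterozygous and 11.9 and 12.8 CPM in wild-type libraries. The log2 fold change of 1.38 ± 0.35 (adjusted p = 0.111 in edgeR and 0.00217 in DESeq2) became 0.64 ± 0.48 with the season as a factor. The heterozygous group holds 2 libraries of the first season, which has no homozygous library, and within the third season *PRKX* had 24.6 and 20.9 CPM in 2 homozygous libraries, against 15.3 CPM in 1 heterozygous library. Seasons were joined to libraries by replicate number, and that join is uncertain. The part of season in these differences was not tested beyond that fit.

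*MXRA5*, *PPP2R3B* and *ECRG4* were lower in homozygous embryos. *MXRA5*, which encodes a secreted protein of the extracellular matrix, had 64.1, 76.4, 90 and 90.4 CPM in homozygous libraries, against 135, 127 and 128 CPM in heterozygous and 103 and 126 CPM in wild-type libraries. The 4 homozygous libraries lay below all 5 others. The libraries given as lower in RNA integrity, replicates 1 and 4 by number, are both homozygous and had 64.1 and 90.4 CPM. With them left out, edgeR called 0 members between homozygous and heterozygous libraries, against 0.0121% of all genes. That count was 0 with all 9 libraries too, so it does not bear on *MXRA5*. The part of RNA integrity in its difference was not tested. The log2 fold change over heterozygous libraries was -0.69 ± 0.14 (adjusted p = 0.0861 in edgeR and 6.20e-04 in DESeq2), -0.75 to -0.60 when each library was left out and -0.69 ± 0.25 with the season as a factor. With each library left out the adjusted p ran from 0.0458 to 0.215 in edgeR, and it was under the threshold only without homozygous replicate 3. The summed level of the dermal fibroblast markers, cells that make matrix, was 18518 to 28684 TPM in homozygous libraries and 26650.2 to 30913 TPM in heterozygous libraries, and its part in this difference was not tested.

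*PPP2R3B*, a regulatory subunit of protein phosphatase 2A, had 4.65, 4.68, 6.28 and 6.36 CPM in homozygous libraries, against 10.6, 10.1 and 8.38 CPM in heterozygous and 7.89 and 6.13 CPM in wild-type libraries. Homozygous and heterozygous libraries do not overlap, and of the wild-type libraries 1 lies between them and 1 within the homozygous range. Its log2 fold change was -0.82 ± 0.19 (adjusted p = 0.0990 in edgeR and 0.00519 in DESeq2). *ECRG4*, which encodes a secreted peptide precursor, had 20.4, 18.6, 13.7 and 15.6 CPM in homozygous libraries, against 22.99, 35.9 and 24.9 CPM in heterozygous and 19.98 and 24.6 CPM in wild-type libraries, a log2 fold change of -0.70 ± 0.19 over heterozygous libraries (adjusted p = 0.117 in edgeR and 0.0244 in DESeq2). Heterozygous replicate 2 was the highest of all, and without it the log2 fold change of *ECRG4* was -0.49.

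**Figure D3:**
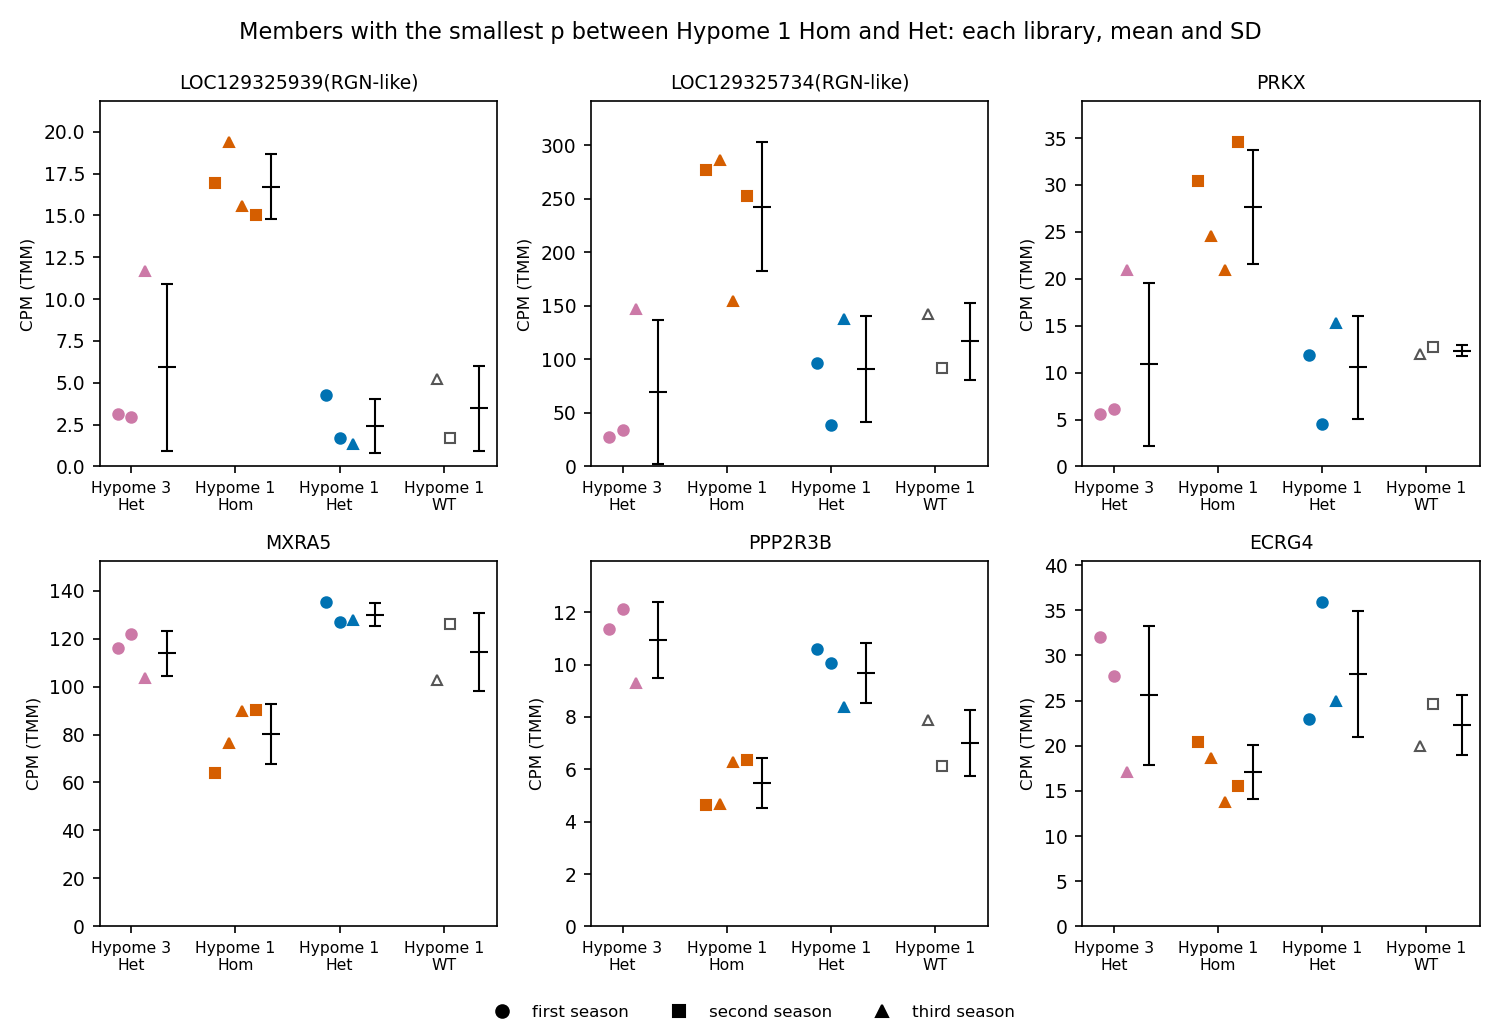
CPM (TMM-normalized, axes from 0) of the 6 members with the smallest p between Hypome 1 homozygous and heterozygous libraries, in each library of the 4 groups, with the mean and SD beside the points. Marker shapes give the season joined by replicate number. For 3 genes the 4 homozygous libraries lie above the heterozygous ones, and for *MXRA5*, *PPP2R3B* and *ECRG4* they lie lower.

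Among the other members with an unadjusted p under 0.05 in this comparison, none reached an adjusted p under 0.1 in edgeR. *CRLF2*, a subunit of the receptor for thymic stromal lymphopoietin, had 2.46, 2.90, 1.55 and 1.61 CPM in homozygous and 1.30, 0.578 and 1.07 CPM in heterozygous libraries, and *SHOX*, a homeobox gene of limb growth, 0.598, 0.523, 1.15 and 0.939 CPM in homozygous and 2.01, 1.63 and 1.32 CPM in heterozygous libraries. In neither gene do homozygous and heterozygous libraries overlap. The wild-type values of *CRLF2* were 1.39 and 2.07 CPM, the second of which falls within the homozygous range. *SLC9A7*, a sodium/proton exchanger of the Golgi, differed little in size and did not overlap, with 36.6, 32.99, 36.2 and 36.8 CPM in homozygous libraries and 30.6, 26.6 and 30.3 CPM in heterozygous libraries (log2 fold change 0.29 ± 0.11, adjusted p = 0.199 in edgeR). By block, 4 of 6 tested genes from *CHST7* to the regucalcin-like pair, 7 of 20 pseudoautosomal-type genes, 6 of 45 genes of the chromosome 2 block and 0 of 7 genes next to *OCA2* had an unadjusted p under 0.05, against 17.8% of all genes tested. The blocks are small and were set after the gene names were seen, so these counts are not read as a difference between blocks. On the 12 Mb stretches to either side, 7 of 62 and 7 of 61 tested genes did.

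**Figure D4:**
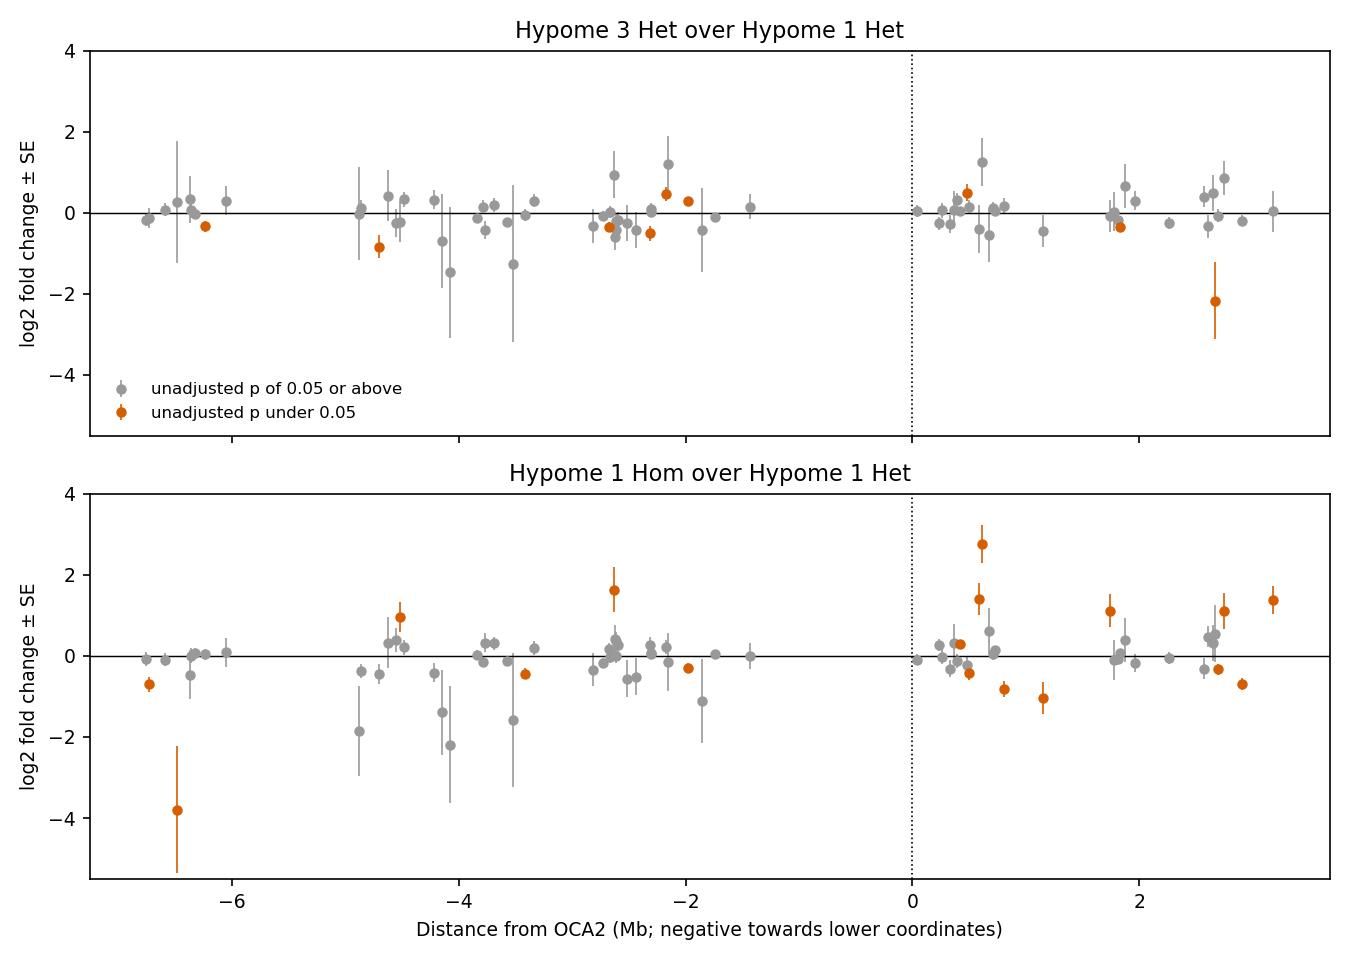
Log2 fold change with its SE of the 78 tested members against distance from *OCA2* in Mb, for Hypome 3 heterozygous over Hypome 1 heterozygous libraries (upper panel) and Hypome 1 homozygous over heterozygous libraries (lower panel). Orange points have an unadjusted p under 0.05, 9 in the upper and 17 in the lower panel, and no member passed after adjustment.

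Set against the 2 wild-type libraries, the homozygous libraries gave a lower share with an unadjusted p under 0.05, among the members as among all genes. A total of 6 members had an unadjusted p under 0.05 (7.69%), against 8.53% of all genes, and 0 passed edgeR's test, against 0.0179% of all genes. DESeq2 called 1 member on the 9 libraries, *LOC129325939(RGN-like)*, against 1.3% of all genes. The groups did not overlap for 13 members, against 19.4% of all genes. This comparison shares the homozygous libraries with the one above, so the same values enter both, and with 4 against 2 libraries an exact permutation test cannot give a p below 0.0667. *LOC129325939(RGN-like)* had a log2 fold change of 2.29 ± 0.55 (adjusted p = 0.376 in edgeR and 6.99e-04 in DESeq2), *PRKX* of 1.17 ± 0.40 (adjusted p = 0.482 in edgeR) and *MXRA5* of -0.50 ± 0.16 (adjusted p = 0.451 in edgeR). Without wild-type replicate 2 the value of *LOC129325939(RGN-like)* was 1.68, and without wild-type replicate 1 it was 3.32.

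*PLCXD1*, a phospholipase domain gene, was barely detected in wild-type skin. It had 11, 13, 29 and 15 counts in homozygous libraries and 20, 10 and 10 counts in heterozygous libraries, against 2 and 5 counts in wild-type libraries. The fold of homozygous over wild-type libraries was 5.35 with an interval of 1.66 to 17.2 (adjusted p = 0.451 in edgeR). At a level of 0.0659 to 0.938 TPM over the 12 libraries, this rests on few reads. *MFSD9*, of a family of membrane transporters, had 8.76, 10.9, 11.4 and 9.02 CPM in homozygous libraries, against 10.8 and 16.3 CPM in wild-type libraries, and *SHOX* 0.598, 0.523, 1.15 and 0.939 CPM in homozygous libraries, against 1.87 and 1.25 CPM in wild-type libraries. The libraries of *MFSD9* overlap and those of *SHOX* do not, and neither gene reached an adjusted p under 0.5 in edgeR.

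The comparison of heterozygous with wild-type Hypome 1 embryos had the lowest share with an unadjusted p under 0.05, among the members as among all genes. Only *PLCXD1* had an unadjusted p under 0.05 among the 78 members (1.28%), against 1.53% of all genes, and 0 members were called by edgeR or by DESeq2 on the 9 libraries, against 0% of all genes. Groups did not overlap for 8 members, against 13% of all genes. *PPP2R3B* had 10.6, 10.1 and 8.38 CPM in heterozygous and 7.89 and 6.13 CPM in wild-type libraries, a log2 fold change of 0.47 ± 0.23 with a fold interval of 0.966 to 1.99. On the lower side, *LIPT1*, which attaches lipoic acid to mitochondrial enzymes, had 4.28, 4.86 and 6.36 CPM in heterozygous and 6.23 and 7.52 CPM in wild-type libraries, with overlap. *CRLF2* and *INPP4A* had log2 fold changes of -0.81 ± 0.46 and -0.31 ± 0.19. With 3 against 2 libraries an exact permutation test cannot give a p below 0.1.

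Hypome 3 heterozygous embryos carry an *mh3* allele in this stretch, and were set against Hypome 1 heterozygous embryos, whose cross carries *mh1*. The embryos of the 2 morphs come from different parents and count tables, so the allele and the family cannot be told apart. With 3 against 3 libraries an exact permutation test cannot give a p below 0.1. Of 78 members, 9 had an unadjusted p under 0.05 (11.5%), 3 of them higher and 6 lower, against 11.2% of all genes tested (4.84% higher and 6.35% lower). The groups did not overlap for 18 members, against 20.6% of all genes. No member was called by edgeR, against 0.176% of all genes, and 0 were called by DESeq2 on the 12 libraries, against 1.63% of all genes. Among the members the median log2 fold change was -0.02, against -0.01 over all genes.

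*INPP4A*, a phosphoinositide phosphatase, had 22.9, 19.3 and 17.6 CPM in Hypome 3 heterozygous libraries, against 12.3, 14.4 and 16.9 CPM in Hypome 1 heterozygous libraries (log2 fold change 0.46 ± 0.17, adjusted p = 0.377 in edgeR). The 6 libraries do not overlap, but a homozygous library with 19.03 CPM and a wild-type library with 20.9 CPM fall among the Hypome 3 values. *TMEM131*, which acts in collagen secretion, had 70.9, 74.4 and 69.2 CPM in Hypome 3 heterozygous libraries, against 52.6, 67.2 and 56.4 CPM in Hypome 1 heterozygous libraries, and its Hypome 3 values were also above those of all 6 other Hypome 1 libraries. Its log2 fold change was 0.28 ± 0.12 (adjusted p = 0.421 in edgeR), and 0.42 against the mean of the 3 Hypome 1 genotypes, where the adjusted p of 0.0434 passed the threshold, as for 2.83% of all genes. *RP2*, a regulator of ciliary protein transport, had 20.1, 20.5 and 16.1 CPM in Hypome 3 heterozygous libraries and 11.7, 14.95 and 13.6 CPM in Hypome 1 heterozygous libraries, a log2 fold change of 0.49 ± 0.21.

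*ASMTL*, a gene related in part to *ASMT*, had the smallest p of the members in this comparison. It had 29.9, 32.4 and 28.9 CPM in Hypome 3 heterozygous libraries, against 41.7, 34.8 and 39.9 CPM in Hypome 1 heterozygous libraries, and every Hypome 3 library lay below all 9 Hypome 1 libraries. The fold was 0.783 with an interval of 0.667 to 0.919 (adjusted p = 0.278 in edgeR), and against the mean of the Hypome 1 genotypes the adjusted p was 0.0441. *IL18RAP*, the accessory subunit of the interleukin 18 receptor, had 2.47, 2.81 and 1.58 CPM in Hypome 3 heterozygous libraries, against 4.11, 3.50 and 4.64 CPM in Hypome 1 heterozygous libraries, a log2 fold change of -0.83 ± 0.28 (adjusted p = 0.337 in edgeR). *EIF5B* had 112, 128 and 128 CPM in Hypome 3 heterozygous libraries and 165, 136 and 169 CPM in Hypome 1 heterozygous libraries, a log2 fold change of -0.35 ± 0.13. *RPL31*, the other gene of translation, had 300.5, 315 and 321 CPM in Hypome 3 heterozygous libraries, against 508, 372 and 376 CPM in Hypome 1 heterozygous libraries, without overlap, and its adjusted p was 0.488 in edgeR.

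**Figure D5:**
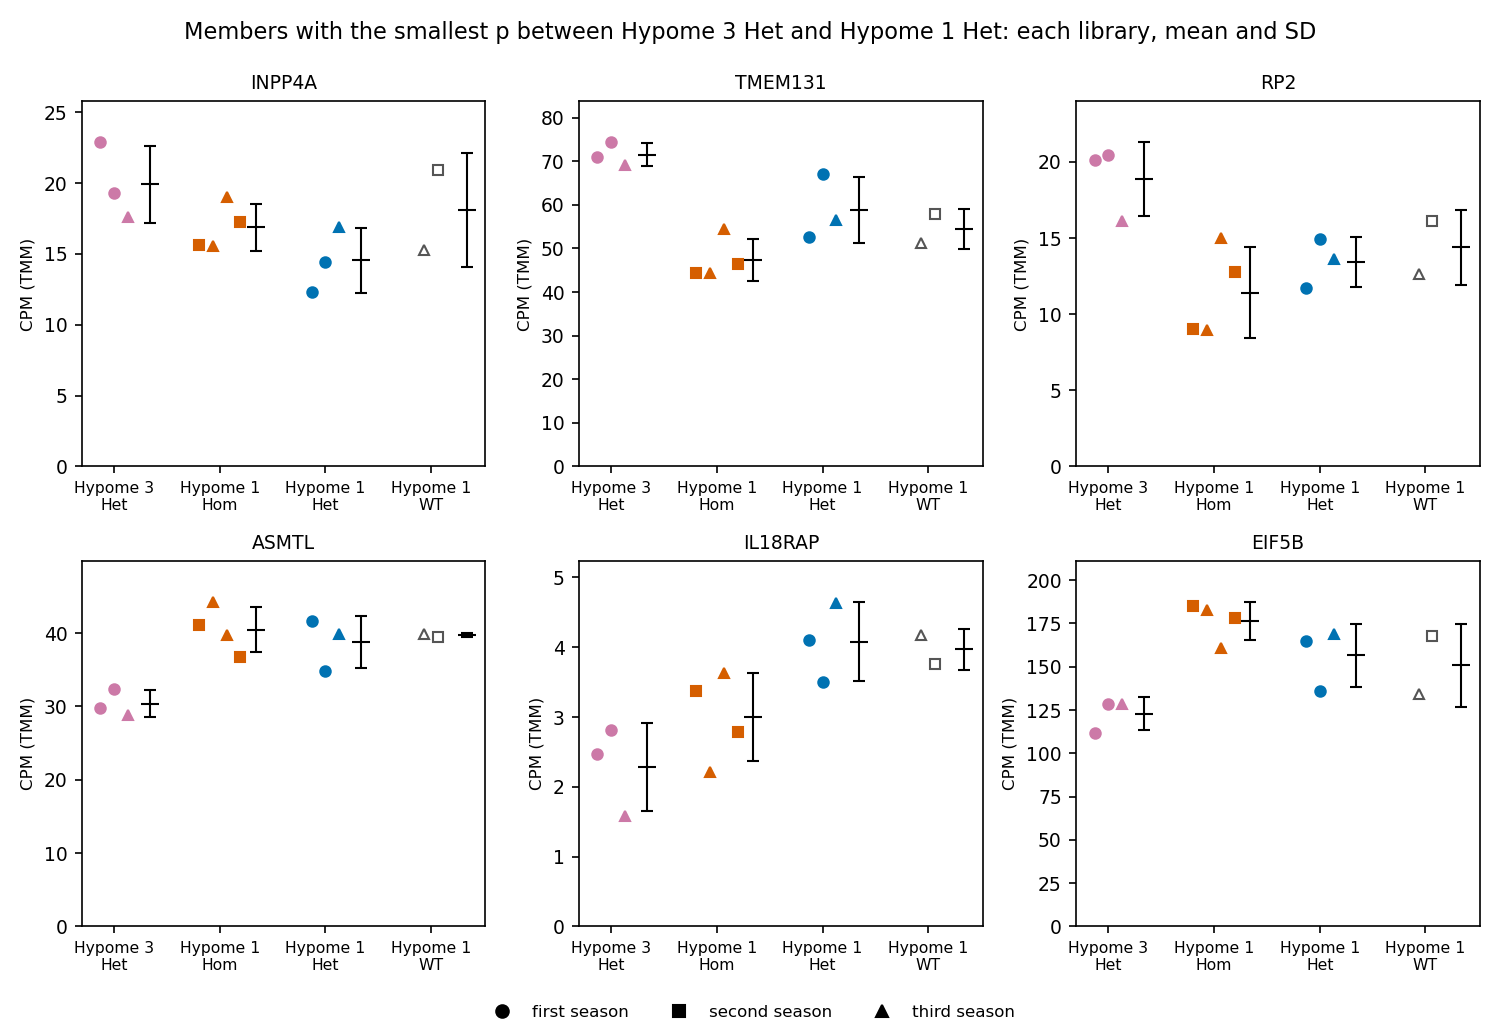
CPM (TMM-normalized, axes from 0) of the 6 members with the smallest p between Hypome 3 and Hypome 1 heterozygous libraries, in each library of the 4 groups, with the mean and SD beside the points. Marker shapes give the season joined by replicate number. *TMEM131* is higher and *ASMTL* lower in the 3 Hypome 3 libraries than in all 9 Hypome 1 libraries.

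The season could be held fixed in part of this comparison. With only the 2 first-season libraries of each morph, the log2 fold change was 0.67 for *INPP4A*, 0.61 for *RP2*, 0.29 for *TMEM131*, -0.29 for *ASMTL*, -0.52 for *IL18RAP* and -0.32 for *EIF5B*. For each of these 6 genes the 2 heterozygous groups do not overlap in CPM, so the direction in that fit was fixed in advance. In TPM the 2 groups of *EIF5B* overlap. The fit called 0 members, against 0.0624% of all genes. For the regucalcin-like genes and *PRKX*, Hypome 3 heterozygous replicate 3, of the third season, stood apart from replicates 1 and 2. *LOC129325734(RGN-like)* had 27.1, 33.8 and 147 CPM in Hypome 3 heterozygous libraries, against 96.9, 39.1 and 138 CPM in Hypome 1 heterozygous libraries, and *PRKX* had 5.62, 6.14 and 20.9 CPM in Hypome 3 heterozygous libraries, against 11.8, 4.57 and 15.3 CPM in Hypome 1 heterozygous libraries. In both genes the third-season library was the highest of its heterozygous group in each morph. *LOC129325939(RGN-like)* had 3.16, 2.95 and 11.7 CPM in Hypome 3 heterozygous libraries, against 4.30, 1.68 and 1.32 CPM in Hypome 1 heterozygous libraries. Its third-season library was the highest in Hypome 3 but the lowest in Hypome 1. Without Hypome 3 replicate 3 its log2 fold change was 0.31 in place of 1.26.

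The interleukin 1 receptor cluster holds 6 members by name, of which 5 were tested and 0 passed in any comparison. *LOC129325912(IL1R2-like)*, similar to the decoy receptor for interleukin 1, had 12.04, 9.18, 7.95 and 9.45 CPM in homozygous Hypome 1 libraries, against 5.06, 2.18 and 7.66 CPM in heterozygous and 7.97 and 5.10 CPM in wild-type libraries. Its log2 fold change over heterozygous libraries was 0.96 ± 0.37 (adjusted p = 0.224 in edgeR), and 0.33 ± 0.52 with the season as a factor. In Hypome 3 heterozygous libraries it had 2.06, 2.86 and 8.0 CPM, the last of these in the third-season library. The IL1R1-like neighbour *LOC129325913* had a log2 fold change of 0.39 ± 0.30 and the other IL1R1-like gene, *LOC129326742*, of 0.21 ± 0.19 between homozygous and heterozygous libraries. *IL18R1* was under 1 TPM in part of the libraries. As copies of a single family, these genes may share reads that, as not uniquely mapped, were left out, which leaves their single values uncertain. Of 9 genes of interleukin 1 signalling tested outside the stretch, 0 passed in any comparison, and of 6 tested GABA-A receptor subunit genes elsewhere in the genome also 0.

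The 2 goose-type lysozyme genes, whose products cleave bacterial walls, were low. *LOC129325423(LYG1-like)* had 1.06, 1.76, 0.576 and 1.34 CPM in homozygous libraries, against 0.229, 0.315 and 0.605 CPM in heterozygous libraries, a log2 fold change of 1.64 ± 0.55 (adjusted p = 0.167 in edgeR), and *LOC129326684(LYG1-like)* had a log2 fold change of 0.41 ± 0.34. This second gene overlaps *MRPL30* by a few bases at its end, on the other strand. Since it is not given whether counting used the strand, their counts cannot be fully separated. *JADE3* and 2 ZBED5-like genes inside it share a strand as well as their position. *JADE3* had a log2 fold change of -0.42 ± 0.18 between homozygous and heterozygous libraries.

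No list by role held a member that passed. No gene passed in any comparison among 3 tested ubiquitin ligases, 4 genes listed under transcription and chromatin, 4 mitochondrial proteins and 2 translation genes. The same held for 6 signalling genes (the phosphatase *INPP4A* among them), 3 cytoskeletal genes, 3 membrane transporters and 2 glycosylation enzymes. These lists are loose, and their medians do not each stand for a single role. Between homozygous and heterozygous Hypome 1 libraries their median log2 fold changes were 0.04, -0.16, 0.18, 0.25, -0.10, -0.32, 0.01 and -0.09, in the same order, against 0.004 over all members tested and -0.004 over all genes. In the same comparison *MAP4K4*, a kinase upstream of JNK signalling, had a log2 fold change of -0.41 ± 0.23 and *NPAS2*, a transcription factor of the circadian clock, of 0.31 ± 0.16. *MGAT4A*, a Golgi glycosyltransferase, had a log2 fold change of 0.58 ± 0.22 for homozygous over wild-type libraries and of -0.51 ± 0.19 for Hypome 3 over Hypome 1 heterozygous libraries, while the sulfotransferase *CHST10* had -0.44 ± 0.13 for homozygous over heterozygous libraries. *LONRF2*, a RING-finger ubiquitin ligase, had 0.30 ± 0.17 for Hypome 3 over Hypome 1 heterozygous libraries.

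A small set of members stood apart in single libraries. *TMEM182*, a membrane protein of muscle, had 3.20, 0.143, 0.173 and 0.107 CPM in homozygous libraries, against 3.33, 1.02 and 5.30 CPM in heterozygous libraries. Homozygous replicate 1 alone of its group was high. The summed level of the 5 skeletal muscle markers was 3636, 23.3, 9.61 and 85.9 TPM in homozygous libraries, and 2180.1, 358 and 3896 TPM in heterozygous libraries. *LOC129326459(ASMT-like)* had 0.739, 0, 0 and 0 CPM in homozygous and 0.841, 0.105 and 1.47 CPM in heterozygous libraries, in nearly the same order. The part of muscle in the samples was not tested for either gene. With homozygous replicate 1 and heterozygous replicate 2 left out together, edgeR called both lower in homozygous than in heterozygous libraries. That fit called 1.09% of all genes and was chosen after seeing the data. For both genes it leaves out the highest homozygous and the lowest heterozygous library, so its calls cannot count as evidence of a difference. *LOC129325970(CD99-like)* had 25.9, 44.5, 68.7 and 54.2 CPM and *GYG2*, which primes glycogen synthesis, 1.27, 5.23, 6.45 and 5.64 CPM in homozygous libraries, and for both replicate 1 was the lowest of the 12 libraries.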

How the data were processed

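Dorsal skin RNA of 12 embryos was analysed. Per the labels, polyA libraries were made with a stranded kit, aligned by the authors with STAR 2.7.10b to their own assembly and counted per gene with featureCounts of Subread 2.0.6, using uniquely mapped read pairs. The strand setting is not given in the sources used here. The deposited values are raw counts per gene in 2 tables, one per cross, and the tables' gene spans and lengths were used for position and TPM. The share of even counts was 57.8% to 65.5% in the Hypome 1 libraries and 49.9% to 50.0% in the Hypome 3 heterozygous libraries. Whether both mates of a pair were counted in the Hypome 1 table was not tested, so the depth of those libraries is uncertain, and halved counts were tried. Of the columns for Hypome 3, 3 matched no labelled sample and were not used, which left out Hypome 3 homozygous embryos.

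Counts were tested with edgeR 4.0.16 (R 4.3.3): TMM factors, the filterByExpr filter (min.count 10, min.total.count 15) and the quasi-likelihood test with Benjamini-Hochberg adjustment over all genes tested. The 3 Hypome 1 contrasts came from a fit of 9 libraries (16751 genes) and the contrast of Hypome 3 with Hypome 1 heterozygous embryos from a fit of 12 libraries (17018 genes). DESeq2 1.42.0, RLE factors, other filters, halved counts, each library left out, the 2 groups alone, the replicate number as a block, the season as a factor and libraries of lower integrity left out were alternatives. Leaving out homozygous replicate 1 with heterozygous replicate 2, and the fits of season for Hypome 3, were chosen after seeing the data. Intervals of a fold are 95% intervals from the edgeR estimate and an SE worked back from its F statistic. Each SE and interval therefore restates the unadjusted p. The intervals are not adjusted for the number of genes tested or for naming genes by a small p. The test was also run on simulated counts. CPM are on the TMM scale of 12 libraries. Season and RNA integrity were joined to libraries by replicate number, which the sources do not state. Gene names were matched to RefSeq (MPM_Emac_v1.0), whose coordinates were not used.

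The members and lists were chosen with earlier results of these data known. Genes named in the text are those past the threshold, the 3 with the smallest p in each direction of each comparison, the 3 tested genes nearest *OCA2* on each side, the 5 with the highest median TPM and 2 to 4 of each list by role. The blocks of human chromosomes, and *TUBGCP5*, *SLC9A7*, *TMEM182*, *GYG2* and the CD99-like and ASMT-like genes outside these rules, were chosen after their values or names were seen. The values of 1 member are not reported here.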

Additional observations from a re-analysis of the deposited data

Results flagged for a closer look

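In the 4 homozygous Hypome 1 libraries, each of the 78 tested members was examined for a library standing apart from the other 3 by Dixon's criterion. For normally distributed values, chance alone meets it in about 1 of 20 groups. That rate does not hold for *LOC129326459(ASMT-like)*, *LOC129325529* and *LOC129326191*. With 0 CPM in 3 libraries they meet the criterion whatever the remaining value is. It was met by 6 members. *TMEM182* had 3.20 CPM in homozygous replicate 1, against 0.107 to 0.173 CPM in the others. The summed skeletal muscle markers were 3636 TPM in that library and 9.61 to 85.9 TPM in the others, and their part in the value was not tested. *LOC129326459(ASMT-like)* had 0.739 CPM in the same library and 0 CPM in the others. *AFF3*, a transcription elongation gene, had 0.523 CPM in homozygous replicate 2, against 1.05 to 1.07 CPM in the others. *SLC9A7* had 33.0 CPM there, against 36.2 to 36.8 CPM in the others. *LOC129325529* was detected in homozygous replicate 2 alone of its group, at 0.238 CPM, and *LOC129326191* in replicate 4 alone, at 0.161 CPM, both close to the limit of detection.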

How the results depend on the processing

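The count of members called was 0 in each comparison and stayed 0 under the alternatives run, with these exceptions. DESeq2 called 6 members between homozygous and heterozygous Hypome 1 libraries, with 9 libraries as well as with the 2 groups alone, and the same 6 genes both times (*ECRG4*, both regucalcin-like genes, *PPP2R3B*, *MXRA5* and *PRKX*), against 6.87% and 6.73% of all genes. For homozygous against wild-type libraries DESeq2 called 1 member with 9 libraries (*LOC129325939(RGN-like)*) and 3 with the 2 groups alone (both regucalcin-like genes and *PRKX*), 4.11% of those tested, against 1.3% and 2.7% of all genes. Leaving out each library gave 0 to 2 called members between homozygous and heterozygous libraries. The 2 came without homozygous replicate 3 (*LOC129325939(RGN-like)* and *MXRA5*), where 1.64% of all genes were called. Leaving out homozygous replicate 1 with heterozygous replicate 2, a choice made after seeing the data, gave 2 others (*TMEM182* and *LOC129326459(ASMT-like)*), against 1.09% of all genes. Against the mean of the Hypome 1 genotypes, 2 members were called in Hypome 3 heterozygous embryos (*TMEM131* and *ASMTL*), 2.56% of the members, against 2.83% of all genes. Whether the replicate numbers pair the libraries could not be decided. The correlations of same-numbered libraries ran from -0.22 to 0.16, but deviations from the mean of so small a group are tied to each other. With the replicate number as a block 0 members were called in each comparison. The contrast of Hypome 3 homozygous with heterozygous embryos was not run, because 3 columns match no labelled sample. The number of members with 1 TPM in every library was 54, and it was 59 at 0.5 TPM, 48 at 2 TPM and 56 at 1 CPM.

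The settings were followed for members named by p or position in a comparison, or with an unadjusted p under 0.05 in edgeR there. Of their values, 998 kept their direction and side of the threshold, 20 passed the threshold with an unchanged direction, and 33 changed sign. None of the values that changed sign had passed the test. Homozygous against heterozygous log2 fold changes of *ATP10A* turned to -0.0394 with the replicate block and ran from -0.203 to 0.247 with each library left out. *CYFIP1* turned to 0.110 without the libraries of lower integrity and to 0.0948 without homozygous replicate 1 and heterozygous replicate 2 (-0.142 to 0.124 with each library left out). *HERC2* turned to 0.169 with season as a factor and 0.0956 without those 2 libraries (-0.199 to 0.0608 with each library left out). *LOC129326191* turned to 0.350 and *UBE3A* to -0.00104 with season as a factor (*UBE3A* -0.0206 to 0.0805 with each library left out). For homozygous against wild-type libraries *ATP10A* was 0.0742 and *CYFIP1* 0.0634 without the libraries of lower integrity (-0.464 to 0.430 and -0.188 to 0.0766). For heterozygous against wild-type libraries, *ATP10A* ran from -0.468 to 0.425 and *HERC2* from -0.156 to 0.104 with each library left out, *LIPT1* turned to 0.00989 and *NIPA2* to 0.170 with season as a factor (*NIPA2* -0.192 to 0.00519). For Hypome 3 against Hypome 1 heterozygous libraries, *ATP10A* was -0.0917 with the first season only and ran from -0.0601 to 0.279, *HERC2* ran from -0.0607 to 0.206, and *VWA3B* was 2.18 against wild-type embryos and 0.820 against the mean of the genotypes. The causes were not tested. With 2 to 4 libraries a group, intervals are wide for members under about 1 CPM.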
